A study of Mus musculus with 12 samples.

Results

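Kit, Sohlh1 and Sohlh2 were followed through 12 RNA-seq libraries of mouse spermatogonia as 3 of the 22549 genes in the deposited tables, found by gene symbol. Kit encodes the receptor tyrosine kinase c-KIT, and Sohlh1 and Sohlh2 encode a pair of germ cell transcription factors. The cells were mouse spermatogonial stem cells (mSSC), taken from testes of wild type male DBA/C57 F1 mice aged 5 to 7 days and grown in culture. In the treatment experiment, cells plated on laminin were given vehicle alone, retinoic acid (RA) at 100 nM, or the same RA together with cycloheximide (CHX) at 0.25 mg/ml, which blocks the making of new protein, and were harvested after 24 h. All 3 groups shared the laminin culture, and CHX without RA was not analysed here. In the induction experiment, GFP-marked mSSC were placed on Sertoli cells from pups, the somatic nurse cells of the testis, which had been inactivated with mitomycin. Cells positive for both GFP and c-KIT were sorted on day 3 and named induced differentiating spermatogonia (idSG), and GFP-positive cells without c-KIT were sorted on day 6 and named induced spermatocytes (iSC). Untreated mSSC were their reference. The labels name no promoter for the GFP. Each of the 6 groups held 2 replicate libraries, and nothing in the labels says whether replicates came from separate cultures or animals, so each p-value measures the spread between these libraries, which may be technical.

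KIT lies on the surface of differentiating spermatogonia, where its ligand, KIT ligand (the product of Kitl), made by Sertoli cells, drives survival and division. Undifferentiated spermatogonia carry little of it, and the change to the KIT-positive state is the textbook response of spermatogonia to RA. SOHLH1 and SOHLH2 are basic helix-loop-helix (bHLH) proteins that can pair with each other, bind the short E-box sequence, and are needed in mice for spermatogonial differentiation. Kit is among the genes known to depend on them, and both factors also act in young oocytes.

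The sequences just upstream of the 3 genes are shown because bHLH proteins read E-boxes and because the genes did not move together in these libraries. Each line holds the 250 bases before the start of transcription in the RefSeq promoter table of build GRCm38.p6, 5′ to 3′ on the strand of the gene, with every E-box (CANNTG) in capitals. The Kit sequence lies at chr5:75574737-75574986 on the plus strand, the Sohlh1 sequence at chr2:25847249-25847498 on the minus strand, and the Sohlh2 sequence at chr3:55181794-55182043 on the plus strand.
Kit: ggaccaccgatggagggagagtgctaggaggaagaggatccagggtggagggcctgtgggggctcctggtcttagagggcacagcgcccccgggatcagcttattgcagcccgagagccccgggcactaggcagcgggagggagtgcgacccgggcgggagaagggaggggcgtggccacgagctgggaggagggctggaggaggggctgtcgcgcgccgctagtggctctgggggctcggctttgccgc
Sohlh1: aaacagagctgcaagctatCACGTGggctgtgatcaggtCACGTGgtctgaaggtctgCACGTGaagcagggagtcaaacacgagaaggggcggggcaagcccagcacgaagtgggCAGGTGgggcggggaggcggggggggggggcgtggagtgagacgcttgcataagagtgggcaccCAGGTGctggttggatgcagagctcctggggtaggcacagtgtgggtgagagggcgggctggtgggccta
Sohlh2: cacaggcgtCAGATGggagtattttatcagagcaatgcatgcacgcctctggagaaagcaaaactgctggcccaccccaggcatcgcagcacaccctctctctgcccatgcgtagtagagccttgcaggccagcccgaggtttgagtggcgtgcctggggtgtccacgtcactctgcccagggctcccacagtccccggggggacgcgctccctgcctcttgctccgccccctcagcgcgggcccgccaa

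Of the 3 promoters, that of Sohlh1 held the most E-boxes. It held 5, and 1.18% of the 27025 promoters in the table held as many in the same window. Of these, 3 were the symmetric form CACGTG, which began 231, 211 and 192 bases before the start, and 2 were CAGGTG. At least 1 CACGTG occurred in 6.04% of all promoters, and at least 3 in 0.0592%. The Sohlh2 promoter held 1 E-box, CAGATG, and 66.1% of all promoters held at least 1. The Kit sequence held no CANNTG in this window. A search of both strands for the GC box GGGCGG found 3 in Sohlh1, where 8.38% of promoters had as many, and 1 each in Kit and Sohlh2, where 33% had as many. The nuclear receptor half-site AGGTCA occurred once, in Sohlh1, overlapping the CACGTG that starts at base 211, and 13.8% of promoters held it. The DR5 form of the retinoic acid response element was in none of the 3 windows and in 0.0888% of promoters. GC content was 70.8% for Kit, 64.4% for Sohlh1 and 64.8% for Sohlh2, against a median of 52% for all promoters. These matches describe letters and were not measured as binding sites.

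Levels were deposited as FPKM (fragments scaled to transcript length and to the library total), which is a value per length, so that genes can be set side by side. Between 11872 and 12510 genes reached 1 FPKM in a library, and FPKM summed to between 459580 and 540064. The absolute depth is unknown, and the spacing of low values gave relative depths of 83.3% to 100% within each experiment. Tests were made with limma on log2(FPKM + 1) within each experiment, and a gene was called at an adjusted p under 0.05. All 8 germ cell markers exceeded 1 FPKM in every library, with sums of 1123 to 1890 FPKM. Mast cell markers, checked because mast cells are rich in KIT, summed to 0.123 to 2.03 FPKM, and Cpa3, Fcer1a and Tpsb2 were at 0 in all 12 libraries. Sertoli markers summed to 7.34 to 12.8 FPKM in the treatment and mSSC libraries. They summed to 507 and 1242 FPKM in idSG and 1994 and 2715 FPKM in iSC, mostly Clu and Inha. Leydig markers summed to 1.77 to 2.67 FPKM in the treatment and mSSC libraries, 41.8 and 90.4 FPKM in idSG, and 167 and 124 FPKM in iSC, mostly Star. Macrophage markers (4.78 to 28.6 FPKM) and endothelial markers (2.15 to 9.10 FPKM) were low throughout, and peritubular and fibroblast markers ranged from 60.9 to 223 FPKM outside iSC and were 511 and 384 FPKM in iSC. In these bulk libraries, fewer cells of a type and less RNA per cell cannot be told apart.

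Kit was low in the stem cells and higher after RA, and its idSG and iSC levels were set in part by the sort on c-KIT. Its level was 3.19 and 3.87 FPKM with vehicle, 13.0 and 14.6 FPKM with RA, and 17.7 and 17.6 FPKM with RA and CHX. In the induction experiment it was 1.88 and 2.42 FPKM in mSSC, 105 and 65.9 FPKM in idSG, and 9.75 and 4.04 FPKM in iSC. From highest to lowest, the group means ran idSG, RA with CHX, RA, iSC, vehicle and mSSC, and no group overlapped its neighbour in that order. The experiments differ in culture and may be scaled apart. For each member, an order of groups across them is therefore a description only. Here and below, the share of all genes whose groups do not overlap was not counted. The steps were small at the low end, where iSC replicate 2 was 4.04 FPKM and vehicle replicate 2 was 3.87 FPKM. In idSG, 3.72% and 6.22% of all genes were at or above Kit, against 48.2% and 46.6% in mSSC.

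**Figure D1:**
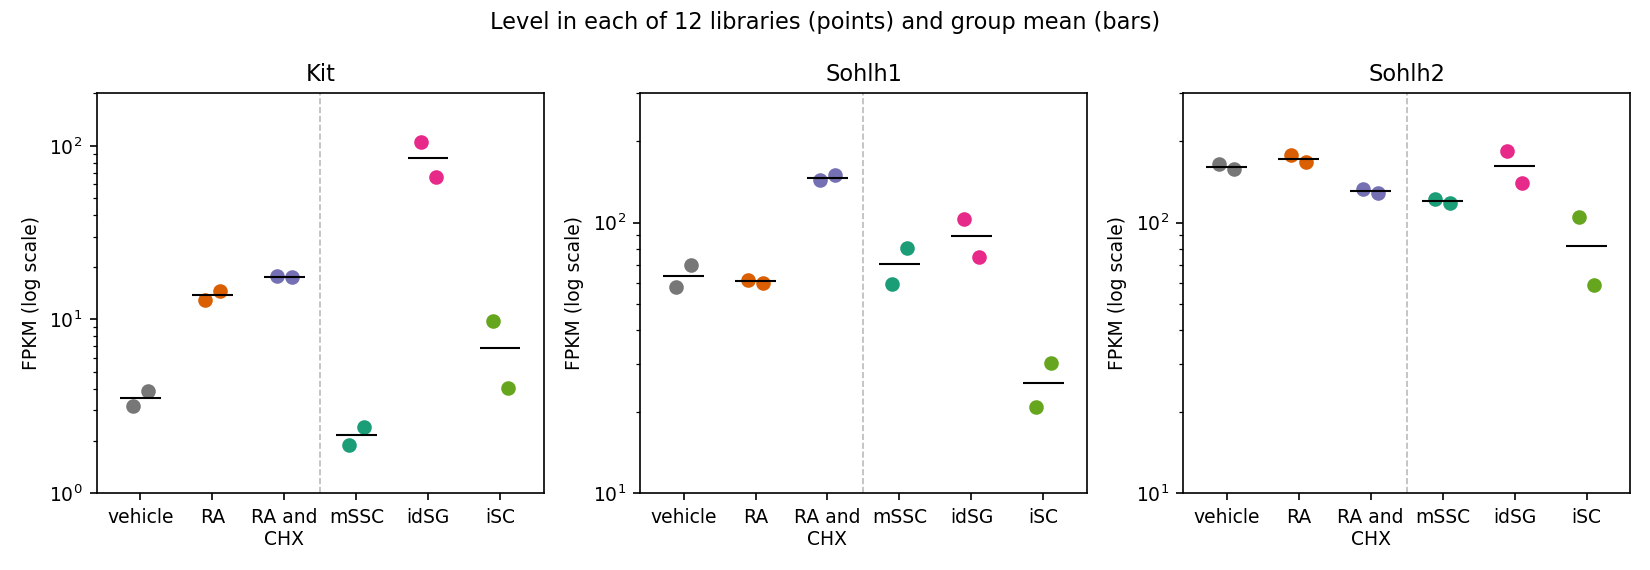
FPKM of Kit, Sohlh1 and Sohlh2 (log axes of different range) in each of the 12 libraries (points), with the mean of each group of 2 (bars) and a dashed line between the treatment and induction experiments. Kit spans 1.88 to 105 FPKM, while Sohlh1 is highest with RA and CHX (144 and 149.7 FPKM) and lowest in iSC (20.8 and 30.4 FPKM).

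Sohlh1 was an abundant transcript in the stem cells before any treatment. It measured 57.8 and 69.5 FPKM with vehicle, 61.1 and 60.04 FPKM with RA, and 144 and 149.7 FPKM with RA and CHX. It measured 59.5 and 80.8 FPKM in mSSC, 103 and 74.5 FPKM in idSG, and 20.8 and 30.4 FPKM in iSC. Described across both experiments, RA with CHX stood above every other group and iSC below, while idSG, mSSC, vehicle and RA overlapped each neighbour in the order of means.

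Sohlh2 was the most abundant of the 3 in every group except RA with CHX. Its level was 165 and 157 FPKM with vehicle, 177 and 168 FPKM with RA, and 133 and 129 FPKM with RA and CHX. It was 123 and 118 FPKM in mSSC, 184 and 140.3 FPKM in idSG, and 105 and 58.8 FPKM in iSC. By the same kind of description, the means ran RA, idSG, vehicle, RA with CHX, mSSC and iSC, of which RA and idSG overlapped, as did idSG and vehicle. In mSSC, 2.72% and 2.88% of genes were at or above Sohlh2, and 7.31% and 4.82% at or above Sohlh1.

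RA against vehicle asked which transcripts answer RA within 24 h. Kit rose 3.91-fold (log2 fold change 1.71 ± 0.08 SE, 95% interval 1.51 to 1.90, limma adjusted p = 2.38e-05), from 3.53 ± 0.479 to 13.8 ± 1.13 FPKM (SD, n = 2), while neither of the transcription factor genes was called. Of the 12339 genes tested, 18 rose at least as much as Kit, itself included, which is 0.146%. Sohlh1 was 63.7 ± 8.23 FPKM with vehicle and 60.6 ± 0.771 FPKM with RA (log2 fold change -0.06, interval -0.24 to 0.12, limma adjusted p = 0.504), and both RA libraries lay between the vehicle libraries. Sohlh2 was 161 ± 5.40 FPKM with vehicle and 172 ± 6.68 FPKM with RA (log2 fold change 0.10, limma adjusted p = 0.0786). Both RA libraries exceeded both vehicle libraries for Sohlh2, an order that is a description and not a test. Calls were common in this comparison, with 52.7% of tested genes called (22.8% higher and 29.9% lower), so 1 called gene of 3 is no more than the background share. The median change of all genes was -0.02.

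The small differences of the transcription factor genes moved with the scaling and with single libraries, whereas the Kit call did not. Without vehicle replicate 1, Sohlh1 was called lower (log2 fold change -0.19, limma adjusted p = 0.0122), and without vehicle replicate 2 its value was 0.07 (adjusted p = 0.225). Sohlh2 was called higher after quantile normalization (log2 fold change 0.26, limma adjusted p = 0.00137). On leaving out any 1 treatment library, the log2 change of Kit stayed between 1.60 and 1.82.

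RA with CHX against vehicle asked which changes appear while protein synthesis is inhibited. All 3 members were called, in a comparison where 79.3% of genes were called (36.1% higher and 43.2% lower) and the median gene changed by -0.05. Kit was 4.99-fold higher at 17.6 ± 0.0784 FPKM (log2 fold change 2.04 ± 0.08 SE, limma adjusted p = 7.14e-07), and 37 genes, or 0.3% of those tested, rose at least as much. Sohlh1 rose 2.31-fold to 147 ± 4.12 FPKM (log2 fold change 1.20 ± 0.08 SE, interval 1.02 to 1.38, limma adjusted p = 5.81e-06). Sohlh2 fell to 131 ± 3.10 FPKM (log2 fold change -0.30 ± 0.04 SE, interval -0.39 to -0.20, limma adjusted p = 0.000344). For Sohlh1 and for Sohlh2 the groups did not overlap. The smallest exact permutation p that 2 against 2 libraries allow is 0.333, so lack of overlap is only a description. With the spread estimated over all 12 libraries, the Sohlh2 fall was not called (adjusted p = 0.291).

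RA with CHX against RA compares 2 groups that both received RA. Here 77.6% of genes were called (35.1% higher and 42.5% lower), with a median of -0.05. Sohlh1 was 2.42-fold higher with CHX (log2 fold change 1.26 ± 0.08 SE, interval 1.08 to 1.44, limma adjusted p = 5.42e-06), and 162 genes, 1.31% of those tested, rose at least as much. Kit was 1.28-fold higher (log2 fold change 0.33 ± 0.08 SE, interval 0.14 to 0.53, limma adjusted p = 0.00753). Sohlh2 was lower (log2 fold change -0.40 ± 0.04 SE, interval -0.49 to -0.30, limma adjusted p = 7.83e-05). The 3 treatment comparisons share libraries, so their values stand side by side and do not support each other.

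Germ cell markers also moved with CHX. Their summed level was 1443 and 1473 FPKM with vehicle, 1308 and 1312 FPKM with RA, and 1830 and 1886 FPKM with RA and CHX, and 7 of 8 were called higher and 1 lower in RA with CHX against RA. These shares of 87.5% and 12.5% stand beside 35.1% and 42.5% of all genes. Against vehicle 6 were called higher and 2 lower (75% and 25%, beside 36.1% and 43.2% of all genes). Ddx4, the vasa helicase gene, was 166 ± 3.88 FPKM with vehicle, 161 ± 4.46 FPKM with RA and 238 ± 0.176 FPKM with RA and CHX. The germ cell RNA-binding gene Dazl was 585 ± 0.980, 539 ± 4.43 and 652 ± 24.8 FPKM in the same order. Dnd1 went the other way, at 92.3 ± 0.709, 66.8 ± 3.02 and 42.0 ± 2.65 FPKM. Mael was 243 ± 0.177, 179 ± 3.46 and 199 ± 0.294 FPKM, below vehicle with CHX. The part of these markers in the member changes was not tested. Each library was also divided by its germ cell marker sum, a scaling picked once the values were known. Since the markers themselves moved with CHX, this scaling is no test of their part. In RA with CHX against RA it moved the median of all genes to -0.50. Sohlh1 was then higher by 0.76 (log2 fold change, limma adjusted p = 6.34e-06). Under that scaling Sohlh2 was -0.90, and Kit was -0.14 with an adjusted p of 0.125, which is above the median gene but no longer a rise. Kit in RA with CHX against RA also missed the threshold without RA replicate 1 (0.26, adjusted p = 0.0543) and with the spread of all 12 libraries (adjusted p = 0.421), where Sohlh2 missed it as well (adjusted p = 0.175).

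**Figure D2:**
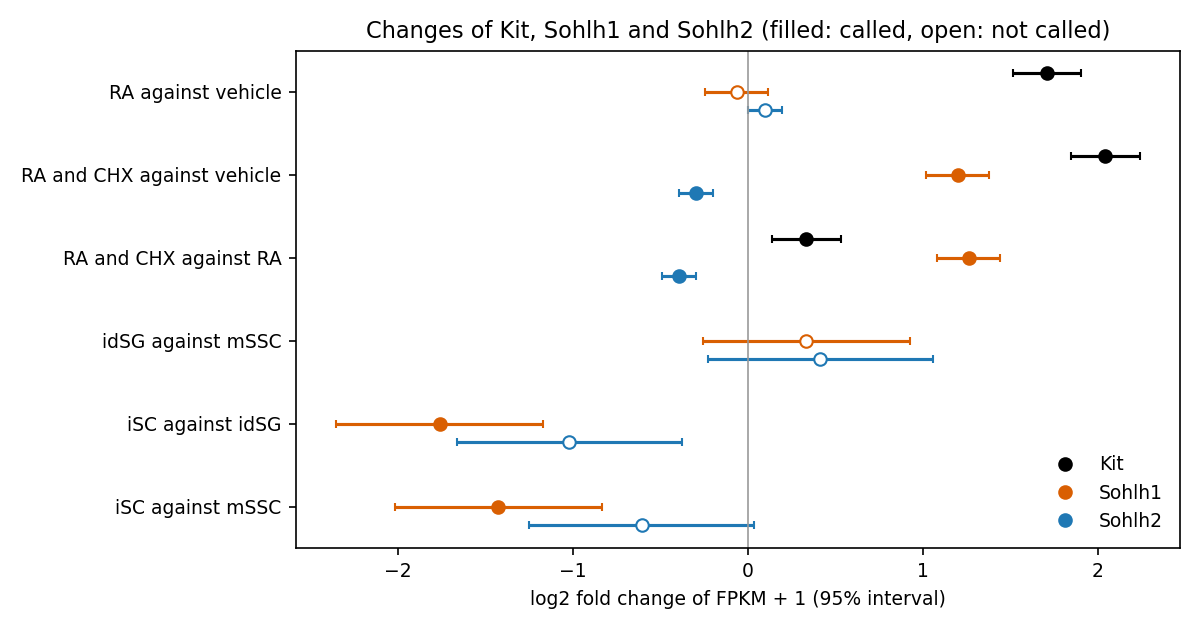
Log2 fold change of FPKM + 1 (x axis) for Kit, Sohlh1 and Sohlh2 in each comparison (rows), with 95% intervals from limma and filled points for called changes. Kit is not drawn in the induction comparisons because c-KIT was the sort gate. Sohlh1 and Sohlh2 lie on opposite sides of 0 in both comparisons with CHX.

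The balance between the 2 transcription factor transcripts differed between groups. FPKM of Sohlh1 divided by that of Sohlh2 was 0.351 and 0.442 with vehicle, 0.345 and 0.358 with RA, and 1.08 and 1.16 with RA and CHX. Sohlh1 thus exceeded Sohlh2 only in the 2 libraries with CHX, out of 12. The ratio was 0.486 and 0.683 in mSSC, 0.561 and 0.531 in idSG, and 0.198 and 0.516 in iSC, where the replicates were far apart. Kit divided by Sohlh1 was 0.0552 and 0.0557 with vehicle, 0.213 and 0.243 with RA, and 0.123 and 0.117 with RA and CHX. That ratio was lower with CHX than with RA alone, since Sohlh1 was 2.42-fold higher and Kit 1.28-fold higher with CHX. In mSSC the ratio of Kit to Sohlh1 was 0.0316 and 0.0299, and in the groups sorted on c-KIT it was 1.02 and 0.885 in idSG and 0.469 and 0.133 in iSC. These ratios are descriptions and were not tested.

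**Figure D3:**
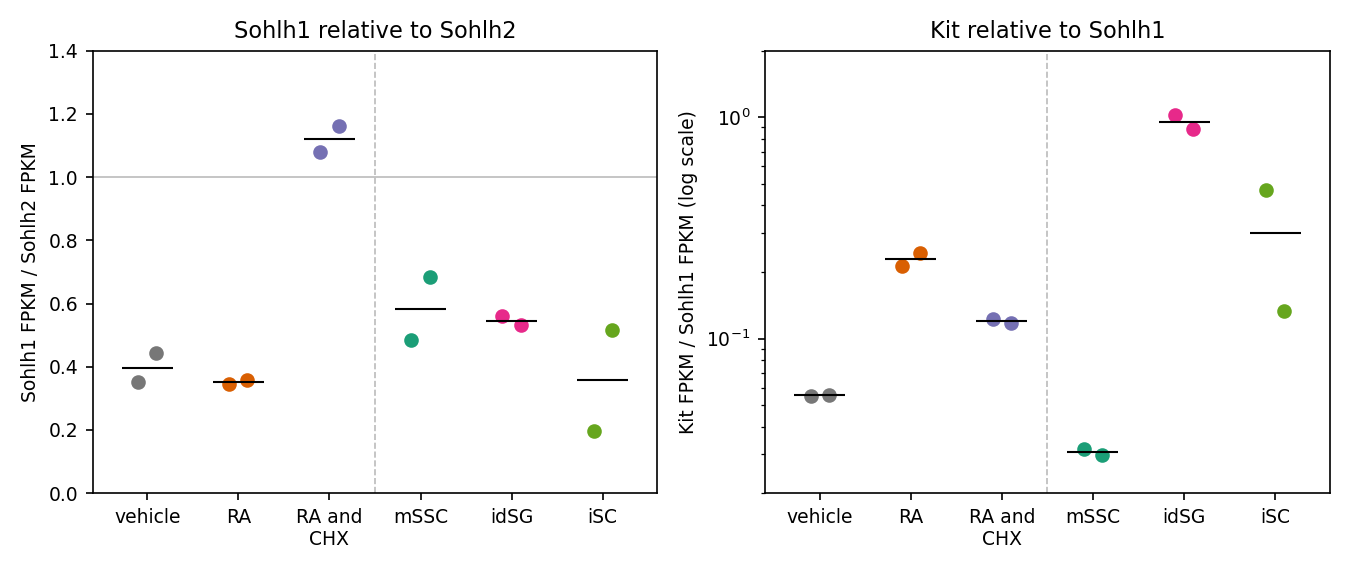
Ratio of FPKM of Sohlh1 to Sohlh2 (left, linear axis) and of Kit to Sohlh1 (right, log axis) in each library (points) with group means (bars). Left, the 2 libraries with RA and CHX are at 1.08 and 1.16 and all others are below 1. Right, idSG is at 1.02 and 0.885, against 0.0316 and 0.0299 in mSSC.

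In the induction experiment Kit serves as a check of the sort. The c-KIT-positive idSG held 85.6 ± 27.9 FPKM of Kit, the c-KIT-negative iSC 6.89 ± 4.04 FPKM and mSSC 2.15 ± 0.376 FPKM (SD, n = 2). Both idSG libraries were above both iSC libraries, which is the order of the gate, and no test was made. The iSC libraries held more Kit transcript than the untreated mSSC did.

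Sohlh1 and Sohlh2 were not part of the gate. In idSG against mSSC, where 28.6% of 12626 genes were called (17.9% higher and 10.7% lower) with a median of 0.05, neither was called. Sohlh1 was 70.2 ± 15.0 FPKM in mSSC and 88.9 ± 20.4 FPKM in idSG, and the groups overlapped (log2 fold change 0.33, interval -0.26 to 0.93, limma adjusted p = 0.346). Sohlh2 was 120.5 ± 2.97 FPKM in mSSC and 162 ± 31.0 FPKM in idSG without overlap (log2 fold change 0.41, interval -0.23 to 1.06, limma adjusted p = 0.287). The intervals leave room for no change and for a rise of nearly 1 on the log2 scale.

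Sohlh1 was lowest in iSC. It measured 25.6 ± 6.76 FPKM there, lower than in idSG (log2 fold change -1.76 ± 0.25 SE, interval -2.35 to -1.17, limma adjusted p = 0.019) and lower than in mSSC (log2 fold change -1.43 ± 0.25 SE, interval -2.02 to -0.84, limma adjusted p = 0.0042). Of all tested genes, 99.7% changed at least as far upward as Sohlh1 in iSC against idSG. Sohlh2 measured 81.9 ± 32.7 FPKM in iSC, with log2 fold changes of -1.02 against idSG (interval -1.67 to -0.38, limma adjusted p = 0.0553) and -0.61 against mSSC (interval -1.25 to 0.04, limma adjusted p = 0.1), neither of them called. Called genes made up 11.2% of those tested in iSC against idSG (4.46% higher and 6.75% lower) and 51.2% in iSC against mSSC (26.2% higher and 25% lower), with medians of -0.04 and -0.03. Each iSC library lay below each idSG and mSSC library for both genes, an order that is likewise only a description.

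The iSC libraries were unlike each other, and some calls rested on single libraries. Sohlh2 was 105 FPKM in iSC replicate 1 and 58.8 FPKM in replicate 2. Without iSC replicate 1, Sohlh2 was called lower against idSG (log2 fold change -1.43, adjusted p = 0.0478) and against mSSC (-1.02, adjusted p = 0.0146). The Sohlh1 call against idSG was lost without idSG replicate 1 (-1.53, adjusted p = 0.136) and without iSC replicate 1 (-1.50, adjusted p = 0.064), while its call against mSSC held on leaving out any 1 induction library (adjusted p 0.00616 to 0.0291). In iSC against idSG, 10 genes in all were called without idSG replicate 1, against 1415 with it. The stem cell genes Zbtb16 (32.2 against 3.76 FPKM), Gfra1 (21.7 against 1.23 FPKM) and Nanos2 (4.62 against 0.0494 FPKM) were higher in iSC replicate 2 than in replicate 1, and their part in the member values was not tested. The Sertoli marker sums were higher in idSG and iSC than in mSSC, as given above, and were mostly Clu and Inha. Clu was 517 ± 319 FPKM in idSG and 1661 ± 636 FPKM in iSC, and Inha was 181 ± 97.0 and 444 ± 166 FPKM. In iSC against idSG, 1 of 9 tested Sertoli markers was called higher and none lower (11.1% and 0%, against 4.46% and 6.75% of all genes). Mean Gata4 was 31.5 FPKM in idSG and 63.1 FPKM in iSC, while mean Wt1 was 52.9 and 45.7 FPKM. Sox9, the defining Sertoli transcription factor gene, was 1.08 ± 0.279 FPKM in mSSC, 18.9 ± 14.4 FPKM in idSG and 19.5 ± 8.21 FPKM in iSC. The part of the Sertoli signal in the member values was not tested either. In the plot of markers, the germ cell sum lay between 1123 and 1890 FPKM, but its genes moved in both directions. Of its 8 genes, 2 were called higher and 2 lower in iSC against idSG (25% and 25%, against 4.46% and 6.75% of all genes). In iSC against mSSC 2 were called higher and 4 lower (25% and 50%, against 26.2% and 25% of all genes). Mean Sycp3 was 165 FPKM in idSG and 387 FPKM in iSC, and mean Piwil2 was 98.7 and 53.5 FPKM. Division by that sum gave log2 changes of -2.07 for Sohlh1 and -1.34 for Sohlh2 in iSC against idSG, with a median gene of -0.33 (limma adjusted p = 0.00798 and 0.0193). The main fit did not call Sohlh2 there.

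**Figure D4:**
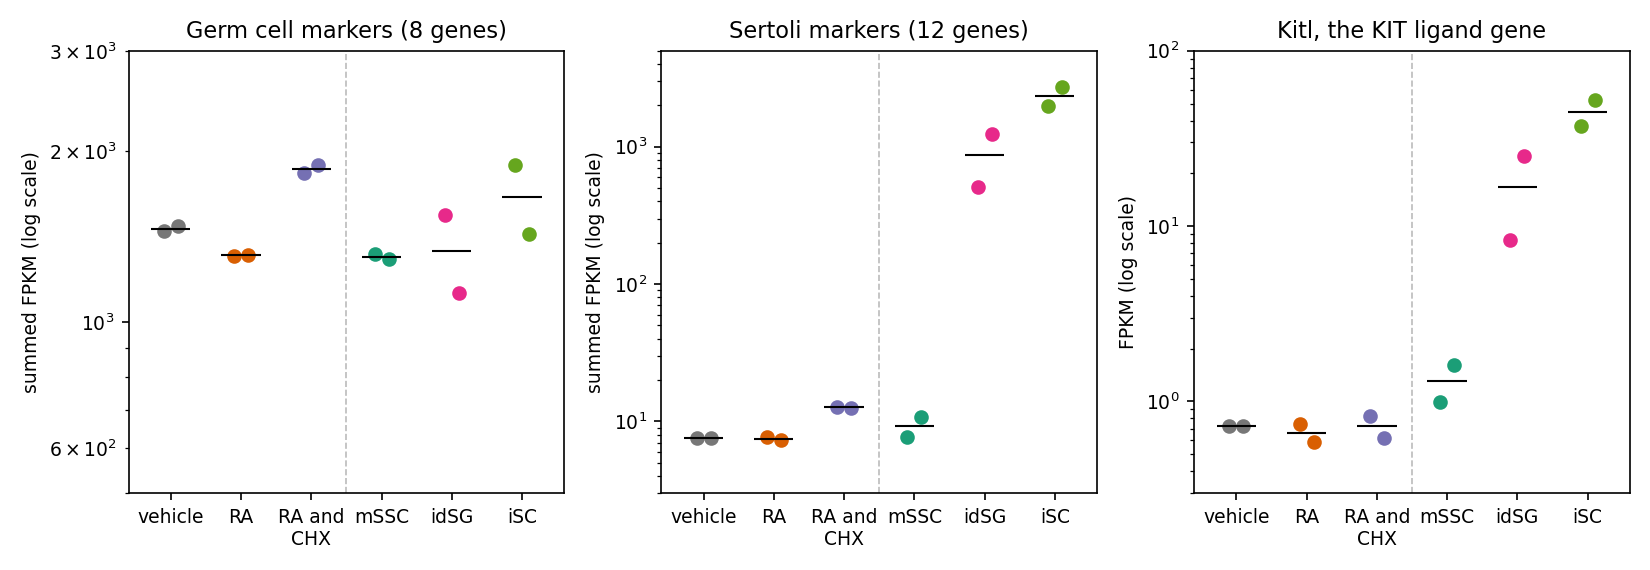
Summed FPKM of 8 germ cell markers and of 12 Sertoli markers (Kitl among them), and FPKM of Kitl, on log axes, in each library (points) with group means (bars). The Sertoli sum is at most 12.8 FPKM in the treatment and mSSC libraries and at least 507 FPKM in idSG and iSC, and Kitl is highest in the same 4 libraries.

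Of 15 tested genes for partners and inhibitors of bHLH proteins, 10 fell (66.7%, against 29.9% of all genes) and none rose in RA against vehicle by limma (median -0.27, against -0.02 for all genes). The counts were the same at an unadjusted p under 0.05, where the share of all genes was not counted. Under germ cell marker scaling 7 fell and 2 rose, while 1817 of all 12339 tested genes fell and 5453 rose. The 10 that fell in the main fit included the E-protein gene Tcf12, which makes a general bHLH partner (46.1 ± 1.05 to 33.8 ± 0.15 FPKM, log2 fold change -0.44). The inhibitors Id3 (85.2 ± 7.13 to 39.9 ± 0.580 FPKM, -1.07) and Id4 (42.5 ± 0.231 to 16.3 ± 0.136 FPKM, -1.33), which bind E-proteins and keep them off DNA, were also among the 10. Neurog3, a bHLH gene of progenitor spermatogonia, was 5.63 ± 0.990 FPKM with vehicle, 0.657 ± 0.0983 FPKM with RA and 0.117 ± 0.0526 FPKM with RA and CHX. It reached the 1 FPKM average needed for testing only through the vehicle group, so its call is set by that filter. The E-protein gene Tcf3 was called lower by a small step (127 ± 5.07 to 113 ± 1.18 FPKM, -0.16), which was -0.03 with an adjusted p of 0.622 after quantile normalization, and Tcf4 was not called (5.51 ± 0.164 and 5.80 ± 0.0800 FPKM). With the spread of all 12 libraries the calls of Id3, Id4 and Tcf3 were lost (adjusted p = 0.0753, 0.117 and 0.458).

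With RA and CHX, 4 of the 15 bHLH genes rose and 8 fell against vehicle (median -0.30), and 6 rose and 8 fell against RA (median -0.13). The shares against vehicle were 26.7% and 53.3%, beside 36.1% and 43.2% of all genes. Against RA they were 40% and 53.3%, beside 35.1% and 42.5%. Figla, the bHLH factor of oocytes, rose from 8.99 ± 0.179 FPKM with RA to 37.8 ± 0.228 FPKM (log2 fold change 1.96, limma adjusted p = 5.04e-07). Tcf12 returned to 48.6 ± 0.259 FPKM with CHX (0.51 against RA). Under germ cell marker scaling the difference was 0.02, where the median of all genes was -0.50. Id3 fell further, to 4.48 ± 1.02 FPKM (-2.91 against RA), as did Id4, to 6.27 ± 0.227 FPKM (-1.25), and Usf1, a factor that also reads CACGTG, to 18.9 ± 0.796 FPKM (-1.27).

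In the sorted cells, 3 of 16 tested bHLH genes rose and 5 fell in idSG against mSSC (median -0.36), 2 rose and 3 fell in iSC against idSG (median 0.08), and 4 rose and 5 fell in iSC against mSSC (median 0.02). Those are 18.8% and 31.2%, 12.5% and 18.8%, and 25% and 31.2% of the list. All genes had 17.9% and 10.7%, 4.46% and 6.75%, and 26.2% and 25%. Neurog3 was tested here only through its mSSC level, so any call of it is set by the filter. Fewer were called in idSG against mSSC without idSG replicate 2, and in iSC against idSG without replicate 2 of either group. Calls over all genes also depended on single libraries, as given at the end. Tcf3 was 102.6 ± 0.161 FPKM in mSSC, 74.8 ± 14.7 FPKM in idSG and 37.7 ± 3.88 FPKM in iSC, lower in iSC than in mSSC (log2 fold change -1.42, limma adjusted p = 0.00121). Id2 was 0.637 ± 0.696 FPKM in mSSC, 8.85 ± 3.33 FPKM in idSG and 18.7 ± 0.193 FPKM in iSC, and Bhlhe40, which encodes a bHLH repressor, was 4.91 ± 2.03, 63.0 ± 28.03 and 62.9 ± 4.05 FPKM in the same order. Both were called higher in idSG (2.61 and 3.41) and in iSC (3.66 and 3.48) against mSSC. Across idSG and iSC the Id2 level was higher where the Sertoli marker sum was higher, while Bhlhe40 was 43.2 and 82.8 FPKM in idSG and 59.99 and 65.7 FPKM in iSC. The part of the Sertoli signal in either was not tested.

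The list of germ cell genes linked to SOHLH factors in mice, many of them oocyte genes, had 12 members, of which 8 passed the filter at 1 FPKM in each experiment. Of these, 2 passed only through the 1 group where they were high, Neurog3 (vehicle) and Lhx8 (RA with CHX) in the treatment experiment and Neurog3 and Zp3 (both mSSC) in the induction experiment, so their calls are set by the filter and the counts that hold them are descriptions. In RA against vehicle 1 rose and 4 fell (12.5% and 50%, against 22.8% and 29.9% of all genes, median -0.27). Sox3, a progenitor gene, fell from 39.2 ± 6.66 to 24.8 ± 3.42 FPKM (log2 fold change -0.64), and Gfra1, the GDNF co-receptor gene of stem cells, from 80.2 ± 6.84 to 58.6 ± 4.87 FPKM (-0.45). Neurog3, described above, and the zona pellucida gene Zp3 (8.09 ± 0.107 to 5.79 ± 1.03 FPKM) were the others that fell. The single riser was Nlrp14 (2.89 ± 0.0528 to 4.44 ± 0.363 FPKM, 0.48), named after its values were seen. With the spread of all 12 libraries, the adjusted p was 0.247 for Sox3, 0.78 for Gfra1, 0.169 for Zp3 and 0.0783 for Nlrp14.

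Against RA, and likewise against vehicle, 3 of the 8 were called higher with CHX and 5 lower (medians -0.69 and -0.53). The share called higher was 37.5%, near the 35.1% and 36.1% of all genes, and the share called lower was 62.5%, against 42.5% and 43.2%. Sox3 rose to 101 ± 4.63 FPKM (log2 fold change 1.98 against RA, limma adjusted p = 5.93e-06), and Figla rose as given above. Lhx8, an oocyte and spermatogonial homeobox gene, was 0.483 ± 0.0597 FPKM with RA and 2.23 ± 0.341 FPKM with RA and CHX, the group that carried it through the filter. Gfra1 fell from 58.6 ± 4.87 FPKM to 7.00 ± 0.392 FPKM (-2.89, limma adjusted p = 2.37e-07), and Nobox, an oocyte homeobox gene, from 4.76 ± 0.571 to 2.29 ± 0.219 FPKM (-0.81). Zp3 and Nlrp14 were also lower with CHX than with RA (-0.85 and -0.82).

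In the induced cells, 1 of the 8 rose and 2 fell in idSG against mSSC (median -0.40), 1 fell and none rose in iSC against idSG (median -0.85), and 4 fell and none rose in iSC against mSSC (median -0.86). The shares higher and lower were 12.5% and 25%, 0% and 12.5%, and 0% and 50% of the list. All genes had 17.9% and 10.7%, 4.46% and 6.75%, and 26.2% and 25%. At an unadjusted p under 0.05, limma gave 4 lower and none higher in both iSC comparisons. The share of all genes at that threshold was not counted. More were called in iSC against idSG without iSC replicate 2, and calls over all genes also depended on single libraries. Neurog3 was 2.90 ± 0.855 FPKM in mSSC, 0.0407 ± 0.00288 FPKM in idSG and 0.123 ± 0.174 FPKM in iSC. Gfra1 was 98.0 ± 22.5 FPKM in mSSC, 20.0 ± 1.28 FPKM in idSG and 11.5 ± 14.5 FPKM in iSC, called only in iSC against mSSC (-3.78, adjusted p = 0.0142, and 0.0658 without mSSC replicate 1). Sox3 was 27.3 ± 6.06, 24.0 ± 6.15 and 10.9 ± 5.43 FPKM in the same order, lower in iSC than in mSSC (-1.31, adjusted p = 0.018, but 0.097 without mSSC replicate 2 and 0.0666 without iSC replicate 1). Lhx8 (1.46 ± 1.21, 4.12 ± 0.596 and 1.03 ± 0.630 FPKM) and Figla (9.77 ± 0.928, 7.38 ± 1.77 and 7.11 ± 0.110 FPKM) were not called. Zp3 was 3.61 ± 1.06, 1.00 ± 0.0326 and 0.288 ± 0.0580 FPKM. Nlrp14 was the gene that rose in idSG (2.77 ± 0.0330 to 6.35 ± 1.13 FPKM, 0.95), a call lost without either mSSC library (0.104 and 0.0877) or without idSG replicate 1 (0.0707), and the gene that fell in iSC against idSG (-1.06, adjusted p = 0.0301, but 0.0539 to 0.158 on leaving out 1 library other than idSG replicate 2).

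**Figure D5:**
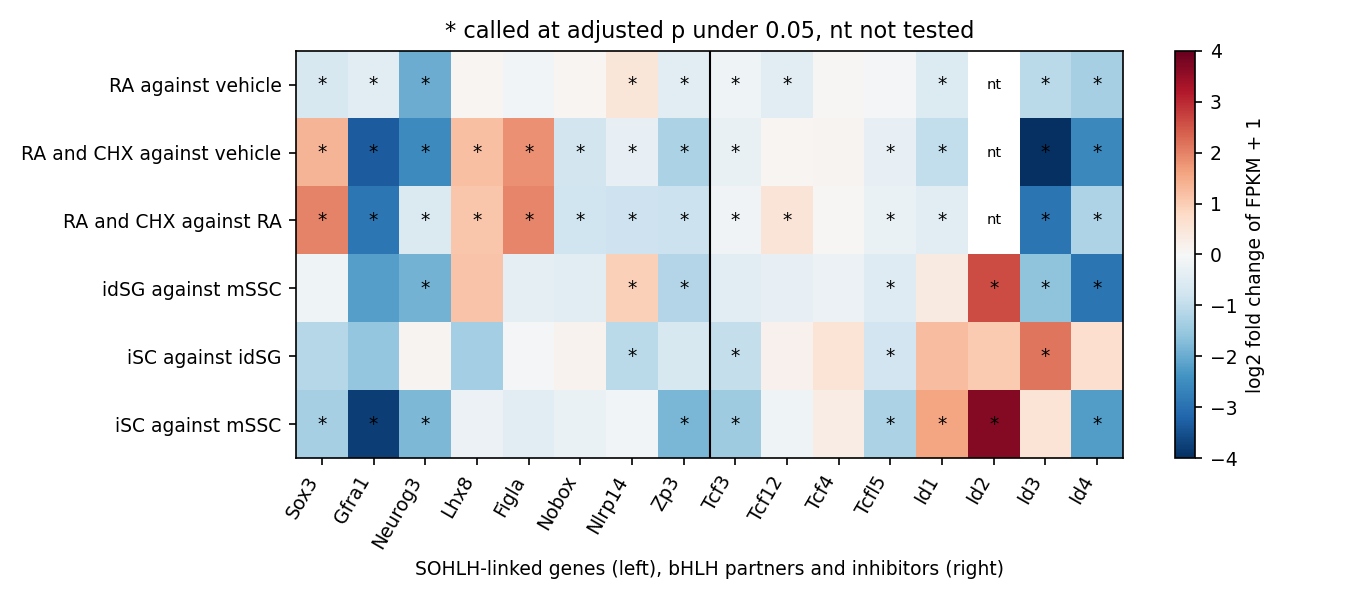
Log2 fold change of FPKM + 1 (colour, red higher, blue lower) of 8 SOHLH-linked genes (left of the line; the Figla and Neurog3 columns also belong to the bHLH list) and 8 bHLH partners and inhibitors (right) in 6 comparisons (rows). Stars mark calls and nt marks genes below the tested level. Sox3 and Figla are red in both comparisons with CHX, while Gfra1, Id3 and Id4 are blue there.

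The gene for KIT ligand was barely detected in the libraries in which Kit rose with RA. Kitl was 0.729 and 0.728 FPKM with vehicle, 0.742 and 0.586 FPKM with RA, and 0.831 and 0.616 FPKM with RA and CHX, below the level tested. It was 0.994 and 1.62 FPKM in mSSC, 8.29 and 25.0 FPKM in idSG, and 37.1 and 52.2 FPKM in iSC, called higher in idSG (log2 fold change 2.77, limma adjusted p = 0.00782) and in iSC (4.30, limma adjusted p = 0.000986) than in mSSC. Kitl is itself a Sertoli gene and is among the markers in the Sertoli sum, so the 2 are not independent. In idSG the library with more Kitl was also the one with the larger Sertoli marker sum and the lower Kit level (65.9 FPKM). No link between these values was tested.

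The signal relay downstream of KIT, is a list of 38 genes that holds Kitl. Of 36 tested, 6 rose and 14 fell in RA against vehicle (median -0.11), 7 rose and 22 fell in RA with CHX against vehicle (median -0.18), and 10 rose and 18 fell in RA with CHX against RA (median -0.14). The shares that fell were 38.9%, 61.1% and 50% in that order, against 29.9%, 43.2% and 42.5% of all genes, among which falls also outnumbered rises. Under germ cell marker scaling the split in RA against vehicle turned to 10 higher and 5 lower. All 12339 tested genes then gave 5453 higher and 1817 lower. With RA, the Src family kinase gene Fyn fell from 81.0 ± 0.570 to 52.5 ± 1.02 FPKM (log2 fold change -0.62), the Ras exchange factor gene Sos2 fell from 8.61 ± 0.10 to 3.83 ± 0.0930 FPKM (-0.99), and Pdpk1, the kinase gene upstream of AKT, rose from 18.5 ± 0.995 to 23.3 ± 0.970 FPKM (0.32). With CHX, the PI3-kinase subunit genes Pik3cd (50.03 ± 2.90 with vehicle, 35.3 ± 1.46 with RA and 15.7 ± 0.515 FPKM with RA and CHX) and Pik3r2 (48.6 ± 0.978, 42.4 ± 0.958 and 15.4 ± 0.0846 FPKM) fell against vehicle by 1.61 and 1.60 on the log2 scale. Mtor rose from 28.6 ± 0.817 to 46.9 ± 1.88 FPKM in the same comparison (0.69). Its difference from RA, called higher, turned to -0.02 under germ cell marker scaling, where the median of all genes was -0.50. With the spread of all 12 libraries the RA calls of Fyn, Sos2 and Pdpk1 were lost (adjusted p = 0.0527, 0.0612 and 0.297).

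Of 37 relay genes tested in the induction experiment, 4 rose and 6 fell in idSG against mSSC (median 0.09), 3 rose and 4 fell in iSC against idSG (median -0.04), and 9 rose and 7 fell in iSC against mSSC (median -0.08). Those are 10.8% and 16.2%, 8.11% and 10.8%, and 24.3% and 18.9% of the list. All genes had 17.9% and 10.7%, 4.46% and 6.75%, and 26.2% and 25%. Without idSG replicate 2, fewer were called in idSG against mSSC, and calls over all genes also depended on single libraries. Fyn was 81.5 ± 5.75 FPKM in mSSC, 32.5 ± 3.22 FPKM in idSG and 31.0 ± 8.22 FPKM in iSC, lower in both induced groups (log2 fold change -1.30 and -1.39). The adaptor gene Gab2 was 2.25 ± 0.720, 5.85 ± 1.89 and 17.2 ± 1.00 FPKM in the same order, higher in iSC than in mSSC (2.50, limma adjusted p = 0.000904).

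Of 12 genes that attenuate KIT signalling, 4 rose and 2 fell in RA against vehicle (median 0.05), 2 rose and 9 fell in RA with CHX against vehicle (median -0.49), and 1 rose and 9 fell in RA with CHX against RA (median -0.56). With RA alone, 33.3% of the list rose and 16.7% fell, against 22.8% and 29.9% of all genes. The 9 that fell are 75% of the list in both comparisons with CHX, against 43.2% and 42.5% of all genes. Sh2b3, whose adaptor protein (LNK) restrains KIT in blood cells, was 66.8 ± 0.759 FPKM with vehicle, 55.8 ± 1.58 FPKM with RA and 9.01 ± 0.294 FPKM with RA and CHX (log2 fold change -2.51 against RA, limma adjusted p = 5.61e-08). Cblb, a ubiquitin ligase gene, was 14.8 ± 0.336, 14.6 ± 0.194 and 9.24 ± 0.305 FPKM in the same order, and Ptpn6, the phosphatase gene for SHP-1, was 5.46 ± 0.142, 6.79 ± 0.0504 and 3.63 ± 0.137 FPKM. In the induction experiment 3 rose and 2 fell in idSG against mSSC (median -0.06), 1 rose and none fell in iSC against idSG by limma (median -0.12, with 1 higher and 3 lower at an unadjusted p under 0.05), and 3 rose and 3 fell in iSC against mSSC (median -0.08). The adjusted calls are 25% and 16.7%, 8.33% and 0%, and 25% and 25% of the list. All genes had 17.9% and 10.7%, 4.46% and 6.75%, and 26.2% and 25%. The share of all genes at the unadjusted threshold was not counted. Ptpru passed the filter only through mSSC and Dok2 only through iSC, so any call of them is set by the filter. The adaptor gene Grb10, named after its values were seen, was the riser in iSC against idSG (1.97 ± 0.358 to 4.44 ± 0.374 FPKM, adjusted p = 0.0483, but 0.0689 to 0.207 with any 1 library of the experiment left out) and also the only one in RA with CHX against RA (1.56 ± 0.0875 to 3.56 ± 0.0584 FPKM). Without idSG replicate 2, fewer of the list were called in both comparisons with idSG, and calls over all genes also depended on single libraries. Sh2b3 fell in idSG as well, from 43.1 ± 9.46 FPKM in mSSC to 13.5 ± 0.444 FPKM (-1.59, limma adjusted p = 0.00464).

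Regulators of Kit, a list of 22 genes named in work on germ or blood cells, included both repressors and activators. Of 19 tested, 3 rose and 13 fell in RA against vehicle (median -0.25), 4 rose and 11 fell in RA with CHX against vehicle (median -0.89), and 6 rose and 11 fell in RA with CHX against RA (median -0.38). Those are 15.8% and 68.4%, 21.1% and 57.9%, and 31.6% and 57.9% of the list in that order. All genes had 22.8% and 29.9%, 36.1% and 43.2%, and 35.1% and 42.5%. Under germ cell marker scaling the splits became 3 and 9, 1 and 17, and 1 and 18. Over all 12339 tested genes that scaling gave 5453 higher and 1817 lower, 1986 and 8081, and 1137 and 9427. Zbtb16, which encodes PLZF, a repressor of Kit in mouse spermatogonia, fell from 69.4 ± 2.23 FPKM with vehicle to 21.8 ± 0.637 FPKM with RA (log2 fold change -1.62, limma adjusted p = 5.06e-06) and 10.7 ± 0.641 FPKM with RA and CHX. Nanos2, an RNA-binding repressor of differentiation, was 7.97 ± 0.139, 0.680 ± 0.244 and 0.288 ± 0.0951 FPKM in the same order, and was tested only through its vehicle level. So was Lmo2, which averaged 2.97 FPKM with vehicle and 0.596 FPKM in the other treatment libraries. Any call of Nanos2 or Lmo2 is set by the filter, and the counts that hold them are descriptions. Sall4, which encodes a partner of PLZF, was 57.1 ± 0.430, 50.4 ± 1.57 and 21.8 ± 0.128 FPKM. Dmrt1, a transcription factor of spermatogonia, was 254 ± 0.776, 187 ± 2.39 and 198 ± 1.77 FPKM and fell with RA (-0.44). Bcl6b, a stem cell gene, was 129 ± 14.1, 128 ± 13.9 and 8.89 ± 0.141 FPKM and fell in both comparisons with CHX. Taf4b, a transcription cofactor gene of germ cells, was 31.6 ± 0.160, 30.7 ± 0.990 and 34.5 ± 0.0457 FPKM, called higher with CHX against RA (0.17). Under germ cell marker scaling it was called lower (-0.32), where the median of all genes was -0.50. Zbtb16 and Dmrt1 lost the RA call with the spread of all 12 libraries (adjusted p = 0.193 and 0.159), and for Sall4 it was 0.751.

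In the induction experiment 2 of these 19 rose and 8 fell in idSG against mSSC (median -0.50), 1 rose and 3 fell in iSC against idSG (median -0.14), and 2 rose and 10 fell in iSC against mSSC (median -1.11). Those are 10.5% and 42.1%, 5.26% and 15.8%, and 10.5% and 52.6% of the list. All genes had 17.9% and 10.7%, 4.46% and 6.75%, and 26.2% and 25%. Lmo2 was tested here only through its mSSC level, so any call of it is set by the filter. Without idSG replicate 2, fewer of the list were called in both comparisons with idSG, while calls over all genes depended on single libraries as well. Zbtb16 was 94.8 ± 9.53 FPKM in mSSC, 13.0 ± 2.69 FPKM in idSG and 18.0 ± 20.1 FPKM in iSC, a fall in idSG (log2 fold change -2.79, adjusted p = 0.0377) that was not called on leaving out any 1 mSSC or idSG library (adjusted p = 0.114 to 0.173). Dmrt1 was 226 ± 22.4, 208 ± 51.4 and 76.0 ± 12.9 FPKM in the same order, lower in iSC than in mSSC (-1.56, limma adjusted p = 0.00181). Sall4 was 29.7 ± 1.27, 20.9 ± 0.911 and 6.59 ± 4.16 FPKM, also lower in iSC than in mSSC (-2.13, limma adjusted p = 0.00333).

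Other genes of differentiating spermatogonia, a list of 12, were all tested. In RA against vehicle 6 rose and 4 fell (median 0.24), in RA with CHX against vehicle 5 rose and 7 fell (median -0.39), and in RA with CHX against RA 5 rose and 6 fell (median -0.13). Those are 50% and 33.3%, 41.7% and 58.3%, and 41.7% and 50% of the list. All genes had 22.8% and 29.9%, 36.1% and 43.2%, and 35.1% and 42.5%. Stra8, the RA-induced gene of meiotic entry, went from 23.6 ± 0.999 FPKM with vehicle to 561 ± 33.2 FPKM with RA and 916 ± 17.0 FPKM with RA and CHX, and the cohesin gene Rec8 went from 8.67 ± 0.744 to 37.5 ± 1.06 and 39.0 ± 0.773 FPKM. Their log2 changes with RA were 4.51 and 2.00, beside 1.71 for Kit. In the induction experiment 5 rose and 2 fell in idSG against mSSC (median 0.70), 4 rose and 5 fell in iSC against idSG (median -0.29), and 5 rose and 4 fell in iSC against mSSC (median 0.44). The list shares were 41.7% and 16.7%, 33.3% and 41.7%, and 41.7% and 33.3%. All genes had 17.9% and 10.7%, 4.46% and 6.75%, and 26.2% and 25%. Stra8 was 9.001 ± 3.87 FPKM in mSSC, 1320 ± 183 FPKM in idSG and 239.8 ± 168 FPKM in iSC. Meioc, listed as Gm1564, a gene of meiotic prophase, was 3.66 ± 0.973, 16.9 ± 1.31 and 70.0 ± 24.0 FPKM, higher in iSC than in mSSC (3.90, limma adjusted p = 0.000289).

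The relatives of KIT, the class III receptor kinases and their ligands, differed in direction. Of 9 listed, 6 passed the filter in the treatment experiment, with 2 higher and 2 lower in RA against vehicle (median -0.04), 2 higher and 3 lower in RA with CHX against vehicle (median -0.01), and 1 higher and 3 lower in RA with CHX against RA (median -0.23). As shares these were 33.3% and 33.3%, 33.3% and 50%, and 16.7% and 50%. All genes had 22.8% and 29.9%, 36.1% and 43.2%, and 35.1% and 42.5%. Flt3l passed only through RA, and Pdgfrb would have failed without RA or without RA and CHX. Any call of these genes is set by the filter, and the counts that hold them are descriptions. The ligand gene Pdgfa fell from 66.9 ± 3.10 FPKM with vehicle to 32.5 ± 3.20 FPKM with RA and 11.4 ± 0.602 FPKM with RA and CHX, a fall with RA that was lost with the spread of all 12 libraries (adjusted p = 0.0825), and Csf1 rose from 1.84 ± 0.278 FPKM with vehicle to 13.9 ± 0.913 FPKM with RA and CHX (log2 fold change 2.39, limma adjusted p = 7.2e-07). Of 7 tested in the induction experiment, 2 rose and 2 fell in idSG against mSSC (median 0.11), none was called by limma in iSC against idSG (median -0.23, with 1 higher and 1 lower at an unadjusted p under 0.05), and 2 rose and 3 fell in iSC against mSSC (median -0.35). The shares were 28.6% and 28.6% in idSG against mSSC, where all genes had 17.9% and 10.7%. In iSC against mSSC they were 28.6% and 42.9%, where all genes had 26.2% and 25%. The share of all genes at the unadjusted threshold was not counted. Pdgfrb passed only through its mSSC level, so any call of it there is set by the filter. Without idSG replicate 2, fewer were called in idSG against mSSC and more in iSC against idSG. Calls over all genes also depended on single libraries. Pdgfra, the PDGF receptor alpha gene, was 5.30 ± 3.12 FPKM in mSSC and 1.55 ± 0.187 FPKM in idSG, a difference called with all libraries (log2 fold change -1.21, adjusted p = 0.0399) but not on leaving out mSSC replicate 2, either idSG library or either iSC library (adjusted p = 0.055 to 0.163). Flt3 stayed between 0.389 and 0.940 FPKM in the group means and was not tested. Kdr, the VEGF receptor gene of the neighbouring receptor class, was 2.18 ± 0.130 FPKM with vehicle, 1.82 ± 0.189 FPKM with RA and 0.262 ± 0.0146 FPKM with RA and CHX (-1.33 against vehicle, limma adjusted p = 4.53e-06).

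Genes whose pattern was most like a member were ranked by Pearson's r on log2(FPKM + 1) after removal of each experiment's mean, among genes that averaged 5 FPKM or more. For Kit, over the 6 treatment libraries and 9239 genes, these were 5730469M10Rik (r = 0.999), Lrpap1 (0.998), Stra8 (0.997), Snx19 (0.997) and Tom1l2 (0.997), and r with Sohlh1 was 0.591 and with Sohlh2 -0.43. For example, Lrpap1 was 10.9 ± 0.213 FPKM with vehicle, 16.4 ± 0.351 FPKM with RA and 17.2 ± 0.0652 FPKM with RA and CHX, a smaller step than that of Kit. For Sohlh1, over 12 libraries and 9638 genes, they were Lancl1 (0.981), Ift46 (0.980), Ndufa11 (0.976), Mex3d (0.974) and Get4 (0.971). Mex3d was 26.7 ± 1.88 FPKM with vehicle, 27.9 ± 1.38 FPKM with RA, 52.2 ± 2.67 FPKM with RA and CHX, 25.8 ± 1.55 FPKM in mSSC, 28.7 ± 4.29 FPKM in idSG and 11.2 ± 0.392 FPKM in iSC. For Sohlh2 they were 1700018B24Rik (0.985), Ctdnep1 (0.966), Tuba3b (0.963), Dhrs13 (0.954) and Pigs (0.951), of which Tuba3b was 640 ± 8.64 FPKM with vehicle and 477 ± 3.64 FPKM with RA and CHX. Sohlh1 and Sohlh2 correlated with each other at 0.369. The libraries fall into 3 groups per experiment, so each r largely compares group means, and with so many genes some values near 1 arise in any such search.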

How the data were processed

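RNA-seq libraries of 6 groups with 2 replicates each were analysed. The deposited FPKM were computed by the authors with TopHat2 2.0.6 and Cuffdiff on mm9, per the submitters' processing notes. Which version of Cuffdiff and which scaling were used is not given in the sources used here. FPKM carry no counts, so depth is unknown and no counting intervals are given. The 25 repeated lines of 1 vehicle table were counted once.

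Each experiment was tested alone, over genes averaging 1 FPKM or more in its 6 libraries, in R 4.3.3 with limma 3.58.1 on log2(FPKM + 1), a scale that understates changes of low genes, with group as the factor, an eBayes trend and 3 residual degrees of freedom. Benjamini-Hochberg adjustment ran over all tested genes. The smallest exact permutation p that 2 against 2 libraries allow is 0.333, and no such test was run. Statements that groups do or do not overlap are therefore descriptions. The share of all genes without overlap was not counted. Kit was not tested between sorted groups. Figures were drawn in Python 3.11.15 with matplotlib 3.10.9.

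The members, the 7 gene lists and the 7 marker lists were chosen with earlier results of these data known, and lists share some genes. Genes were named by a rule: per list and comparison, up to 2 called risers and 2 called fallers with the largest changes, an average of 5 FPKM or more and groups apart, plus a fixed set of 21 genes. Not every gene the rule allows is printed. Hras and Meioc were found under older symbols, Rhox5 has no row, and Adgre1 is listed as Emr1. Promoter sequences came from the RefSeq table of GRCm38.p6 and were matched for all 3 genes. The alternatives covered pseudocounts, filters, scalings, fits, a replicate block and leaving out each library.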

Additional observations from a re-analysis of the deposited data

How the results depend on the processing

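With 2 libraries a group, the tests rest on 3 residual degrees of freedom, and the unknown depth limits what can be said of low genes. Tested member results kept their direction and side of the threshold under both other pseudocounts (0.1 and 0.5), without the filter, with a filter at 5 FPKM, median-ratio scaling, eBayes without trend and fits of 2 groups alone. Fitting all 12 libraries together left Kit in RA with CHX against RA at 0.33 (adjusted p = 0.421) and Sohlh2 at -0.40 against RA and -0.30 against vehicle uncalled, and called Sohlh2 in iSC against idSG (-1.02, adjusted p = 0.00634) and against mSSC (-0.61, adjusted p = 0.0345). Germ cell marker scaling, added after seeing the data, turned Kit in RA with CHX against RA to -0.14 and Sohlh1 in RA against vehicle to 0.087, and called Sohlh2 in RA against vehicle (0.25), iSC against idSG (-1.34) and iSC against mSSC (-0.94). Its all-gene medians were 0.12, -0.36 and -0.50 for RA against vehicle, RA with CHX against vehicle and RA with CHX against RA, and 0.04, -0.33 and -0.32 for the induction comparisons in the order idSG against mSSC, iSC against idSG, and finally iSC against mSSC. Quantile normalization turned Sohlh1 in RA against vehicle to 0.054 and called Sohlh2 there (0.26). Same-numbered libraries deviated together at r between -0.03 and 0.09, so the numbers were not taken as pairs; the replicate block called Sohlh2 in RA against vehicle (0.10, adjusted p = 0.0326), iSC against idSG (-1.02, adjusted p = 0.0444) and iSC against mSSC (-0.61, adjusted p = 0.0498), changed no other member call, and gave 911 calls in iSC against idSG. Leaving out 1 library gave ranges of 0.26 to 0.41 for Kit in RA with CHX against RA, -0.19 to 0.066 (the latter without vehicle replicate 2) for Sohlh1 in RA against vehicle, -2.03 to -1.50 for Sohlh1 and -1.43 to -0.61 for Sohlh2 in iSC against idSG, and -1.02 to -0.20 for Sohlh2 in iSC against mSSC.

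Genes called in idSG against mSSC numbered 3613, 6562 with all 12 libraries, 1870 under germ cell marker scaling and 942 to 4199 on leaving out 1 library. In iSC against idSG they numbered 1415, 669 with no filter, 151 from the 2 groups alone, 5272 with all 12 libraries, 798 under germ cell marker scaling and 10 to 1557 on leaving out 1 library. In iSC against mSSC they numbered 6461, and 3442 to 6302 on leaving out 1 library. With all 12 libraries, 510 rather than 6503 were called in RA against vehicle, 5858 rather than 9573 in RA with CHX against RA and 6290 rather than 9788 in RA with CHX against vehicle. The share of calls that were higher moved from 43.3% to 55.2% in RA against vehicle and from 62.7% to 47.8% in idSG against mSSC under quantile normalization, and from 39.8% to 50.6% in iSC against idSG under median-ratio scaling. Under germ cell marker scaling it was 75% in RA against vehicle, 19.7% (main 45.5%) in RA with CHX against vehicle, 10.8% (main 45.3%) in RA with CHX against RA, 15% in iSC against idSG and 34.5% (main 51.2%) in iSC against mSSC. Of the recomputed counts of called list genes, 430 stayed within 1.5 times the main count and 74 did not. The causes were not tested.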
